A study of Homo sapiens with 12 samples.

Results

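The B-cell receptor complex and its proximal signalling machinery were followed through 10 genes: CD79A, CD79B, SYK, BLNK, BTK, LYN, CD22, BANK1, MS4A1 and PLCG2. Members were the probe sets annotated to exactly 1 gene symbol, that symbol being 1 of the 10, and where a gene had several probe sets the brightest on average over the 12 arrays stood for it. All 10 genes were found, among 18417 genes with such a probe set. Only PLCG2 had a choice of probe sets, and its 2 probe sets disagreed, as given below.

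The B-cell receptor is a membrane immunoglobulin held at the surface by a heterodimer of CD79A and CD79B. When antigen binds, the Src-family kinase LYN phosphorylates the paired tyrosine motifs in the tails of that dimer, SYK docks on them, and the adaptor BLNK then gathers BTK and the phospholipase PLCG2, which opens the calcium and protein kinase C branches. CD22 is an inhibitory co-receptor that LYN also phosphorylates, BANK1 is a scaffold for LYN and calcium release, and MS4A1 encodes the surface protein CD20. Hodgkin Reed-Sternberg cells are known for having lost much of the B-cell programme, while lymphomas of the activated B-cell-like type often depend on receptor signalling.

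Expression was measured on 12 biotin-labelled arrays in 2 human lymphoma lines, U-H01 from Hodgkin lymphoma and HBL-1 from activated B-cell-like diffuse large B-cell lymphoma. All cells had been transduced with doxycycline-inducible hairpins against RelB or cRel, subunits of the transcription factor NF-kB, and the groups were 4 U-H01 arrays labelled induced, 4 uninduced U-H01 arrays, 2 induced HBL-1 arrays and 2 uninduced HBL-1 arrays. U-H01 was sampled as the populations B1 and B2 and HBL-1 as the population C, each at time points 1 and 2, and doxycycline was given only to the induced part. The labels do not tie a letter to a hairpin, they name each line as a single cell line, and they state separate cultures for no group. The p-values here thus reflect array-to-array spread alone, part of which may be technical. Values are the deposited log2 levels from RMA, a normalization that brings all arrays to like distributions, and differences are log2 differences ± the standard error of the fit. Calls were made with limma at a Benjamini-Hochberg adjusted p under 0.05 over all 18417 genes.

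The 4 U-H01 arrays labelled induced stood apart from the 4 uninduced ones. Across the 18417 genes these groups correlated with each other at 0.893 to 0.909, against 0.991 to 0.996 among the uninduced U-H01 arrays. With the HBL-1 arrays, U-H01 labelled induced correlated at 0.903 to 0.915 and uninduced U-H01 at 0.886 to 0.898. A check of sample identity on 6 genes split the 8 U-H01 arrays into 4 and 4, along the induction label. In HBL-1, 0 of 4 arrays failed that check, and induced and uninduced arrays correlated at 0.992 to 0.994. Differences between the U-H01 groups therefore compare the labels as given, across arrays that this check set apart. Of the B-cell markers, 3 were used here, PAX5, POU2AF1 and CD37. PAX5 averaged 11.81 in U-H01 labelled induced, 9.05 in uninduced U-H01, 10.63 in induced HBL-1 and 10.77 in uninduced HBL-1, and CD37, a tetraspanin, averaged 7.08 in U-H01 labelled induced, 9.39 in uninduced U-H01, 10.9996 in induced HBL-1 and 11.22 in uninduced HBL-1, so PAX5 and CD37 went opposite ways between the U-H01 labels. POU2AF1 averaged 8.43 in U-H01 labelled induced, 7.57 in uninduced U-H01, 9.81 in induced HBL-1 and 9.58 in uninduced HBL-1. TNFRSF8, which encodes CD30 of Hodgkin cells, averaged 11.59 in U-H01 labelled induced but only 6.89 in uninduced U-H01, near the 6.63 of both HBL-1 groups. Summed levels of 10 T and NK cell markers ran from 8.37 to 8.72 in U-H01 labelled induced, from 8.19 to 8.43 in uninduced U-H01 and from 8.21 to 8.40 over the HBL-1 arrays. Of 6 Hodgkin cell markers 2 were higher, 2 lower and 2 not called between the U-H01 labels. Over all genes 22.4% were higher and 23.5% lower. TRAF1 averaged 8.58 in U-H01 labelled induced and 5.87 in uninduced U-H01. FSCN1 averaged 6.91 in U-H01 labelled induced and 8.75 in uninduced U-H01, and CCL22 averaged 5.82 in U-H01 labelled induced and 7.57 in uninduced U-H01. Summed levels of 6 myeloid markers lay between 7.0 and 7.33 on every array.

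HBL-1 had the whole set above a guide to background, and U-H01 had only part of the set above it. As a guide to background, each level was set against the 95th percentile of 341 olfactory receptor genes on the same array, which lay between 5.24 and 5.38. Probe sets differ in brightness, so this is a guide and not a detection call. Where a group was not above it on all arrays, a fold is given as a lower bound, with that level in place of each array value below it. All 10 members were above it on every induced and every uninduced HBL-1 array. In U-H01 labelled induced, 7 were above it on all 4 arrays, BANK1 and MS4A1 were above it on none, and BTK exceeded it on 1 of 4. In uninduced U-H01, 6 were above it on all 4 arrays, and SYK, BTK, BANK1 and MS4A1 were above it on none. Of those 6, BLNK cleared it by only 0.08 to 0.22 and CD79A by 0.24 to 0.60.

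**Figure D1:**
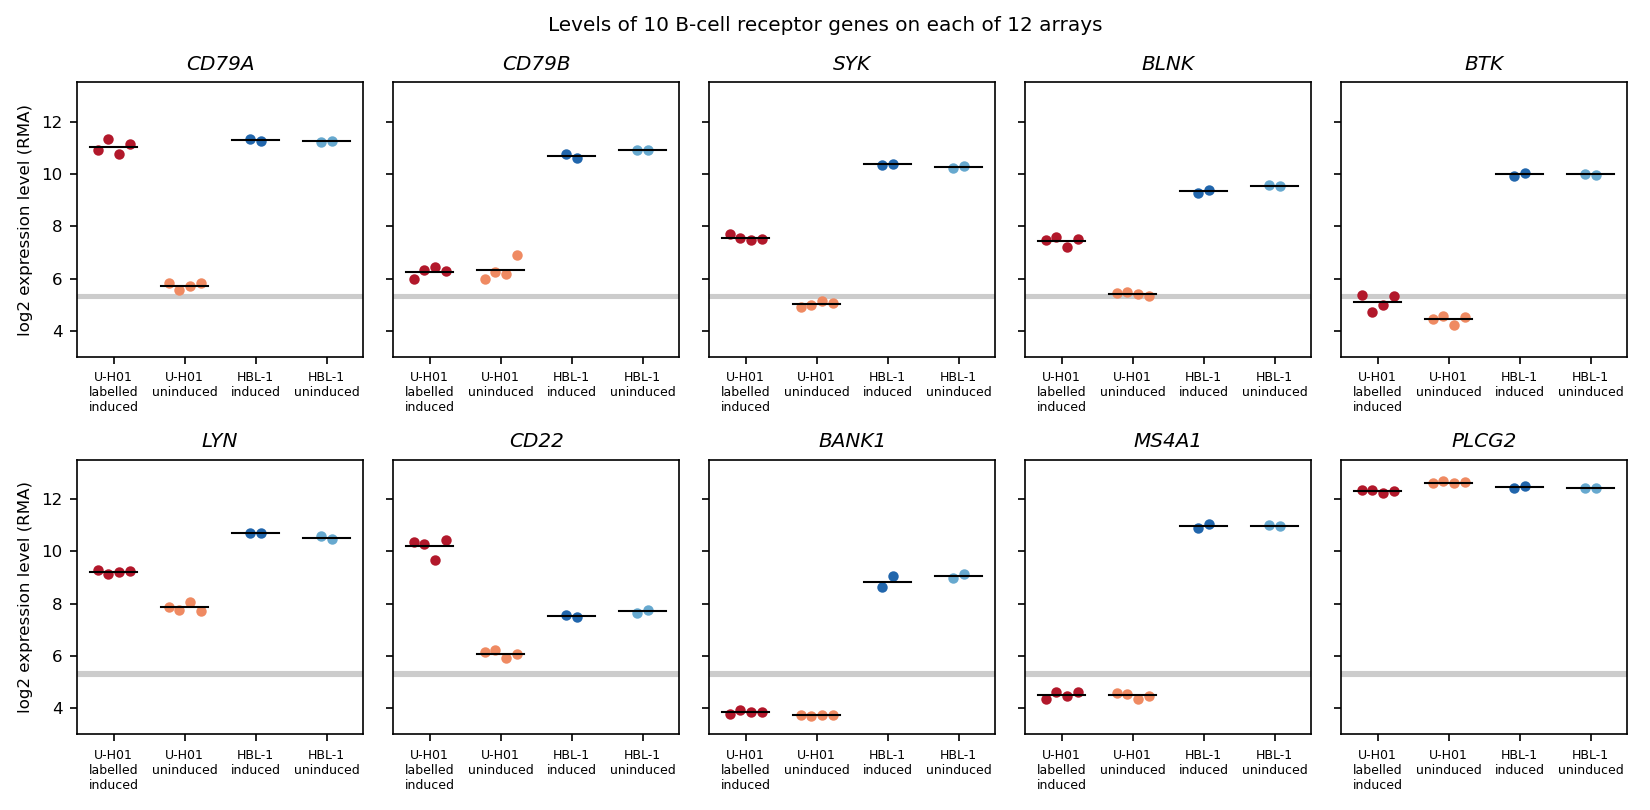
Log2 expression level (y axis) of each member on each array, with the 4 groups on the x axis, a point per array and a line at the group mean. The grey band is the range over arrays of the olfactory receptor 95th percentile, 5.24 to 5.38. MS4A1 and BANK1 lie below the band on all 8 U-H01 arrays, whereas CD79A and CD22 reach at least 9.66 in U-H01 labelled induced.

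Between the U-H01 labels, 6 of the 10 members were higher and 1 was lower in the arrays labelled induced, where 22.4% of all genes were called higher and 23.5% lower. The median difference of the members was 1.0, beside 0.03 over all genes. With each array set to its own median, the median over all genes became 0.18 and 69.3% of calls were higher, beside 48.8% as deposited, so small positive differences in U-H01 depend on the scale. Between the lines, 9 of 10 members were lower in uninduced U-H01 than in uninduced HBL-1 and 0 were higher, against 22.1% and 20.8% of all genes. In the induced arrays 7 were lower and 1 was higher in U-H01 labelled induced than in HBL-1, against 20.6% and 18.0% of all genes. The comparisons share arrays, so their values are given side by side.

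**Figure D2:**
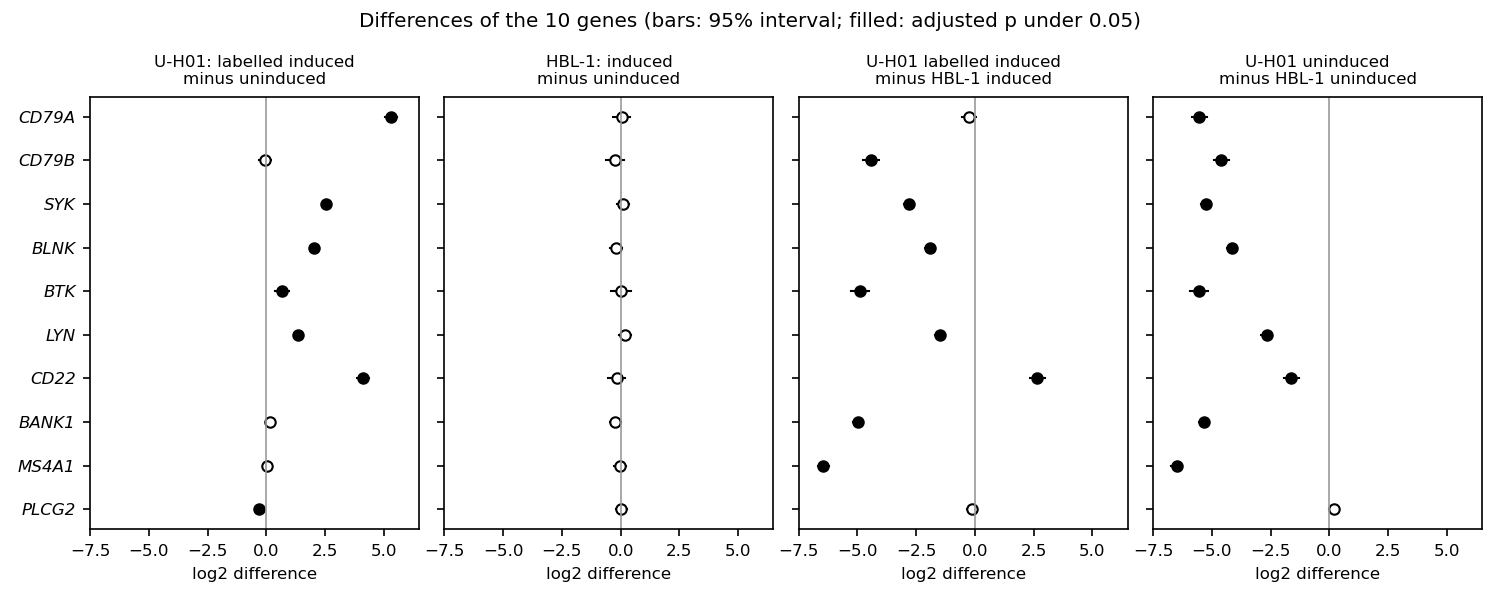
Log2 differences (x axis) of the 10 members (y axis) in 4 comparisons, with bars for 95% intervals and filled points for an adjusted p under 0.05. In HBL-1 all 10 points are open, and CD22 is the only member to the right of 0 with a filled point when U-H01 labelled induced is set against HBL-1.

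The chains of the signalling dimer parted only in U-H01 labelled induced, with CD79A near HBL-1 and CD79B far below it. In uninduced U-H01 both chains were far below HBL-1. CD79A, whose tail carries one of the receptor's activation motifs, had levels of 10.91, 11.34, 10.75 and 11.15 in U-H01 labelled induced, against 5.83, 5.55, 5.70 and 5.84 in uninduced U-H01. HBL-1 had 11.33 and 11.27 in the induced and 11.24 and 11.27 in the uninduced arrays. The labelled induced arrays were thus about as high as HBL-1, and the uninduced ones far below without overlap. CD79A was higher by 5.31 ± 0.11 or 39.6-fold between the U-H01 labels (adjusted p = 1.69e-12). In uninduced U-H01 it was lower than in uninduced HBL-1, at -5.53 ± 0.14 or 46.1-fold (adjusted p = 1.19e-11). The labelled induced arrays differed from induced HBL-1 by -0.26 ± 0.14 (95% interval -0.57 to 0.04), which did not pass (adjusted p = 0.178).

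CD79B, its partner chain, had levels of 6.0, 6.34, 6.45 and 6.27 in U-H01 labelled induced, against 5.98, 6.23, 6.17 and 6.92 in uninduced U-H01. The HBL-1 arrays read 10.76 and 10.62 when induced and 10.91 and 10.92 when uninduced. Both U-H01 groups overlapped and both lay more than 3 log2 units under every HBL-1 array. The difference between the U-H01 labels was -0.06 ± 0.12 (95% interval -0.33 to 0.21, adjusted p = 0.751), and its sign was positive with 2 other scalings. U-H01 labelled induced was lower than induced HBL-1 by a difference of -4.42 ± 0.15 or 21.4-fold (adjusted p = 2.06e-10), and uninduced U-H01 was lower than uninduced HBL-1 at -4.59 ± 0.15 or 24.1-fold (adjusted p = 1.29e-10).

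The kinases SYK and LYN stood in 3 steps. SYK, which docks on the phosphorylated dimer, had levels of 7.69, 7.53, 7.48 and 7.51 in U-H01 labelled induced, against 4.90, 5.0, 5.12 and 5.05 in uninduced U-H01. It had 10.35 and 10.40 in induced HBL-1, and 10.24 and 10.30 in uninduced HBL-1. No arrays of different lines or of different U-H01 labels overlapped. SYK was higher by 2.53 ± 0.08, or at least 4.91-fold, between the U-H01 labels (adjusted p = 7.77e-11). It was lower in U-H01 labelled induced than in induced HBL-1 at -2.82 ± 0.10 (7.05-fold) and lower in uninduced U-H01 than in uninduced HBL-1 at -5.25 ± 0.10 (at least 32.2-fold), with adjusted p of 3.23e-10 and 2.29e-12.

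LYN, the initiating Src-family kinase, had 9.30, 9.12, 9.20 and 9.23 in U-H01 labelled induced, against 7.88, 7.76, 8.08 and 7.73 in uninduced U-H01. It had 10.71 and 10.69 in induced and 10.59 and 10.47 in uninduced HBL-1. LYN exceeded the olfactory receptor level by at least 2.45 on all 8 U-H01 arrays. It was higher by 1.35 ± 0.08 or 2.55-fold between the U-H01 labels (adjusted p = 2.61e-08). U-H01 labelled induced was lower than induced HBL-1, at -1.49 ± 0.10 or 2.80-fold (adjusted p = 1.07e-07), and uninduced U-H01 was lower than uninduced HBL-1, at -2.67 ± 0.10 or 6.35-fold (adjusted p = 4.01e-10).

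BTK, the Tec-family kinase that activates PLCG2, had 5.36, 4.73, 5.0 and 5.32 in U-H01 labelled induced, against 4.45, 4.57, 4.22 and 4.53 in uninduced U-H01. HBL-1 had 9.93 and 10.05 in the induced and 9.99 and 9.97 in the uninduced arrays. The 2 U-H01 groups did not overlap, yet 7 of the 8 arrays were at or under the olfactory receptor level, and no fold is given between them. The difference between the U-H01 labels was 0.66 ± 0.14 (adjusted p = 0.00149), and within pairs it was 0.91 and 0.16 in B1 and 0.78 and 0.79 in B2. U-H01 labelled induced was lower than induced HBL-1 at -4.89 ± 0.17, or at least 24.6-fold, and uninduced U-H01 lower than uninduced HBL-1 at -5.54 ± 0.17, or at least 26.4-fold (adjusted p = 2.10e-10 and 6.19e-11).

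BLNK, the adaptor phosphorylated by SYK, followed the 3 steps of SYK and LYN. It had levels of 7.47, 7.57, 7.19 and 7.5 in U-H01 labelled induced, against 5.46, 5.48, 5.39 and 5.32 in uninduced U-H01. HBL-1 had 9.29 and 9.40 in the induced and 9.57 and 9.53 in the uninduced arrays. It was higher by 2.02 ± 0.08 or 4.06-fold between the U-H01 labels (adjusted p = 6.13e-10), and the groups did not overlap. It was lower in U-H01 labelled induced than in induced HBL-1, at -1.91 ± 0.10 or 3.76-fold (adjusted p = 1.18e-08). In uninduced U-H01 it was lower than in uninduced HBL-1 at -4.14 ± 0.10 or 17.6-fold (adjusted p = 1.01e-11).

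BANK1, the scaffold, had 3.77, 3.95, 3.87 and 3.87 in U-H01 labelled induced, against 3.74, 3.70, 3.75 and 3.73 in uninduced U-H01. HBL-1 had 8.64 and 9.05 in the induced and 8.99 and 9.15 in the uninduced arrays. Between 46.0% and 58.9% of the olfactory receptor genes were brighter than BANK1 on the U-H01 arrays, so it was near the middle of that background in both groups. The difference between the U-H01 labels was 0.14 ± 0.08 and did not pass (adjusted p = 0.193), although it did with each array set to its median (0.29, adjusted p = 0.00769). U-H01 labelled induced was lower than induced HBL-1 by a difference of -4.98 ± 0.10, or at least 11.4-fold, and uninduced U-H01 lower than uninduced HBL-1 by one of -5.34 ± 0.10, or at least 14.1-fold (adjusted p = 4.30e-12 and 1.43e-12).

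PLCG2, the phospholipase that BTK activates, gave opposite answers from its 2 probe sets. The brighter one, which the selection rule takes and which the platform annotation ties to 1 transcript record, had 12.37, 12.37, 12.26 and 12.30 in U-H01 labelled induced, against 12.60, 12.68, 12.61 and 12.65 in uninduced U-H01. HBL-1 had 12.41 and 12.52 in the induced and 12.44 and 12.43 in the uninduced arrays. By this probe set PLCG2 was near 12 everywhere and slightly lower in U-H01 labelled induced, at -0.32 ± 0.07 or 1.24-fold (adjusted p = 0.00302), a call that was lost with each array set to its median (-0.17, adjusted p = 0.0847). It did not differ past the threshold between the lines, at -0.14 ± 0.09 for the induced and 0.20 ± 0.09 for the uninduced arrays (adjusted p = 0.255 and 0.0885). The difference between the uninduced lines passed with quantile normalization (0.31, adjusted p = 0.0189) and with the trend and robust options of limma (adjusted p = 0.0187).

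The dimmer PLCG2 probe set, tied to 8 transcript records, had 10.77, 10.79, 10.35 and 10.92 in U-H01 labelled induced, against 6.37, 6.27, 6.23 and 5.73 in uninduced U-H01. It had 10.89 and 11.004 in induced HBL-1 and 10.80 and 10.87 in uninduced HBL-1. Read this way, uninduced U-H01 alone was low, as for CD79A. Fitted with all 19460 probe sets of 1 symbol, it was higher by 4.55 ± 0.13 or 23.5-fold between the U-H01 labels (adjusted p = 3.15e-11) and lower in uninduced U-H01 than in uninduced HBL-1 at -4.68 ± 0.16 or 25.6-fold (adjusted p = 2.53e-10). U-H01 labelled induced against induced HBL-1 gave -0.24 ± 0.16 (adjusted p = 0.313). The probe sets of PLCG2 differed by 4.87 in their U-H01 difference, the widest gap among the 769 genes with several probe sets, and it was 1 of 9 genes whose probe sets passed in opposite directions. Which one follows the coding transcript was not tested, so what uninduced U-H01 has of PLCG2 is given here both ways.

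**Figure D3:**
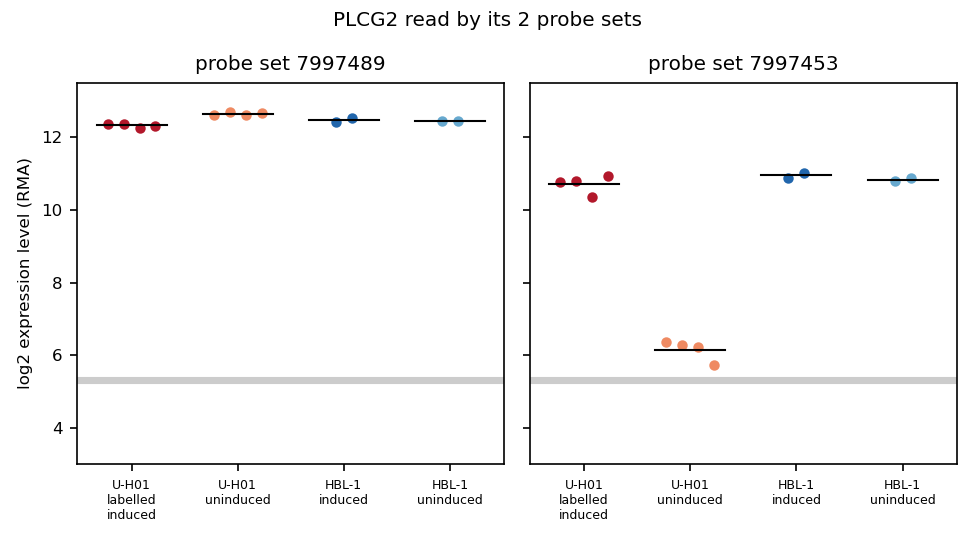
Log2 level (y axis) of the 2 PLCG2 probe sets by group (x axis), with a point per array, a line at each group mean and the olfactory receptor band in grey. The left probe set stays between 12.26 and 12.68, while the right one lies between 5.73 and 6.37 in uninduced U-H01 and at 10.35 or more elsewhere.

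CD22, the inhibitory co-receptor, was the only member higher in U-H01 labelled induced than in HBL-1 past the threshold. It had 10.37, 10.29, 9.66 and 10.45 in U-H01 labelled induced, against 6.14, 6.22, 5.93 and 6.07 in uninduced U-H01. HBL-1 had 7.58 and 7.49 in the induced and 7.66 and 7.76 in the uninduced arrays, between the U-H01 groups. CD22 was higher by 4.11 ± 0.12 or 17.2-fold between the U-H01 labels (adjusted p = 2.62e-11) and higher by 2.66 ± 0.15 or 6.30-fold in U-H01 labelled induced than in induced HBL-1 (adjusted p = 1.73e-08). In uninduced U-H01 it was lower than in uninduced HBL-1, at -1.62 ± 0.15 or 3.08-fold (adjusted p = 1.53e-06).

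MS4A1, the gene of CD20, had 4.37, 4.63, 4.46 and 4.62 in U-H01 labelled induced, against 4.58, 4.56, 4.35 and 4.47 in uninduced U-H01. HBL-1 had 10.90 and 11.05 in the induced and 10.99 and 10.97 in the uninduced arrays. All 8 U-H01 arrays were below the olfactory receptor level. The U-H01 groups overlapped, with a difference of 0.03 ± 0.08 (95% interval -0.15 to 0.21, adjusted p = 0.816). MS4A1 was lower in U-H01 than in HBL-1, at -6.45 ± 0.10, or at least 49.6-fold, between the induced and -6.49 ± 0.10, or at least 52.9-fold, between the uninduced arrays (adjusted p = 1.42e-12 and 1.13e-12). Of these levels, fewer cells with the transcript and less transcript per cell cannot be told apart in bulk RNA.

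In HBL-1 no member passed the test between induced and uninduced arrays. With limma 0 of 10 were called, where 0.608% of all genes were, and 0 of 10 had an unadjusted p under 0.05, where 9.81% of all genes had. The differences ran from -0.23 ± 0.18 for CD79B to 0.17 ± 0.12 for LYN, and BANK1, also at -0.23, had the lowest unadjusted p, 0.0648. The 95% intervals of all 10 lay between -0.61 and 0.43, so a change of 2-fold lies outside each of them. Of the members, 2 were higher and 3 lower without overlap between the groups, beside 19.7% and 21.6% of all genes. With the 4 U-H01 arrays labelled induced left out of the fit, 0 of 10 were called as well.

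The difference itself, the U-H01 label difference minus the HBL-1 induction difference, passed for 5 of 10 members, all positive, where 15.5% of all genes passed as positive and 17.0% as negative. Of all such calls 47.6% were positive, or 62.1% with each array set to its median. CD79A led at 5.27 ± 0.20, followed by CD22 at 4.28, SYK at 2.43, BLNK at 2.23 and LYN at 1.18 (adjusted p of 3.59e-05 or less). BTK at 0.65 ± 0.24 missed the threshold with an adjusted p of 0.0552 and passed with the replicate block (adjusted p = 0.0281). It also passed without U-H01 labelled induced replicate 2 (0.85, adjusted p = 0.000822). Between the populations B2 and B1, 0 of 10 members differed past the threshold in their U-H01 label difference in limma, with 0 at an unadjusted p under 0.05, where 0.608% and 11.5% of all genes did. The largest such values were -0.25 ± 0.22 for CD79A, -0.25 ± 0.15 for SYK and 0.25 ± 0.27 for BTK.

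The wider pathway was read from 7 fixed lists holding 111 other measured genes. Between the U-H01 labels 46 were higher, 33 lower and 32 did not pass, with a median of 0.09 beside 0.03 over all genes, of which 22.4% were higher and 23.5% lower. Set against HBL-1, 29 were higher and 51 lower in U-H01 labelled induced (18.0% and 20.6% of all genes), and 27 were higher and 58 lower in uninduced U-H01 (20.8% and 22.1% of all genes). In HBL-1 itself 2 were higher and 1 was lower on induction, where 0.608% of all genes were called.

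Downstream of PLCG2, the list of calcium, protein kinase C, RAS and further downstream genes had 14 of 25 higher and 7 lower between the U-H01 labels, against 22.4% and 23.5% of all genes. PRKCB, the protein kinase C form of B-cell receptor signalling, averaged 10.09 in U-H01 labelled induced, against 4.92 in uninduced U-H01, a difference of 5.17 ± 0.09 (adjusted p = 3.73e-13), and averaged 9.84 in induced and 9.65 in uninduced HBL-1. RASGRP3, a RAS exchange factor activated by diacylglycerol, differed by 3.86 ± 0.09 between the U-H01 labels and stood at -5.94 in uninduced U-H01 against uninduced HBL-1. Its relative RASGRP1, best known from T cells, went the other way, with a difference of -1.29 between the U-H01 labels and of 4.44 and 5.30 against HBL-1 in the induced and the uninduced arrays. PRKCA was lower in U-H01 labelled induced at -3.17 ± 0.11.

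Among adaptors 9 of 21 were higher and 7 lower between the U-H01 labels, again beside 22.4% and 23.5% of all genes. HCLS1, a SYK and LYN substrate of the actin skeleton, led with 4.90 ± 0.10, averaging 9.91 in U-H01 labelled induced and 5.01 in uninduced U-H01. VAV2 followed at 2.03, and GAB2, at -2.90, and NCK2, at -1.72, were lower. LCP2, the T-cell counterpart of BLNK, was higher in U-H01 than in HBL-1 at 3.84 ± 0.10 in the induced and 3.40 ± 0.10 in the uninduced arrays. Of 11 proximal kinases 4 were higher and 5 lower between the U-H01 labels, beside 22.4% and 23.5% of all genes. Between these labels ZAP70, the T-cell relative of SYK, was higher at 2.09 ± 0.11 and PTK2, the focal adhesion kinase, lower at -4.48 ± 0.14. BLK, a Src-family kinase of B cells, was lower in U-H01 than in HBL-1 at -4.87 ± 0.18 in the induced and -4.12 ± 0.18 in the uninduced arrays.

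Of 11 co-receptors and surface partners 5 were higher and 4 lower between the U-H01 labels, where 22.4% and 23.5% of all genes were. CD38, a surface enzyme of activated and plasma cells, led with a difference of 6.62. CR2, a complement receptor of B cells, averaged 7.59 in U-H01 labelled induced and 3.15 in uninduced U-H01, with 3.21 in induced and 3.30 in uninduced HBL-1, so that like CD22 it was highest in U-H01 labelled induced. FCRLA, an intracellular Fc receptor-like protein of B cells, averaged 5.21 and 5.22 in the U-H01 groups and over 10 in HBL-1, with line differences of -5.63 ± 0.17 and -5.72 ± 0.17 in the induced and the uninduced arrays, a split like that of MS4A1. CD24 was the only gene of this list to pass in HBL-1, at 0.95 ± 0.15 (adjusted p = 0.0118). Its averages, 4.90 in induced and 3.95 in uninduced HBL-1, were both below the olfactory receptor level.

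Inhibitory receptors and phosphatases were mostly lower in U-H01. Of 28 measured, 19 were lower and 3 higher in U-H01 labelled induced than in induced HBL-1, against 20.6% and 18.0% of all genes. In uninduced U-H01 20 were lower and 3 higher than in uninduced HBL-1, against 22.1% and 20.8% of all genes. Some of these calls were at background, as for FCRL4, lower in both comparisons, which averaged below the olfactory receptor level in every group. Medians were -0.60 and -0.90. The Fc receptor-like gene FCRL5 stood at -3.13 ± 0.11 and -3.42 ± 0.11 in the induced and the uninduced arrays, CD72, a co-receptor with an inhibitory motif, at -3.09 ± 0.12 in the induced arrays, and FCGR2B, the inhibitory Fc receptor, at -3.46 ± 0.11 in the induced arrays. Between the U-H01 labels 7 were higher and 7 lower (22.4% and 23.5% of all genes), among them PTPN6, the phosphatase recruited by CD22, at 1.12 ± 0.13 and PECAM1 at -5.60 ± 0.09. In HBL-1 SIGLEC6 was higher on induction at 0.74 and PTPN11 lower at -0.57 (adjusted p = 0.0312 and 0.0322).

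Of 10 measured members of the PI3-kinase list, 6 were higher and 2 lower between the U-H01 labels (22.4% and 23.5% of all genes), led by PIK3R5 at 3.70 ± 0.10 and PIK3CG at 3.31 ± 0.13. Immunoglobulin genes are thinly covered, with 5 of 11 measured and the heavy-chain constant genes not analysed here. Of the 5, 0 were higher and 2 lower in U-H01 labelled induced than in induced HBL-1, against 18.0% and 20.6% of all genes. Between the uninduced lines 0 were higher and 1 was lower in U-H01, against 20.8% and 22.1%. IGKC averaged 7.95 in U-H01 labelled induced, 7.72 in uninduced U-H01, 7.85 in induced and 7.95 in uninduced HBL-1, and passed in no comparison. JCHAIN, which links secreted immunoglobulin, was lower in U-H01 at -4.79 ± 0.19 in the induced and -3.04 ± 0.19 in the uninduced arrays. Its averages in both U-H01 groups, 3.82 and 4.68, were below the olfactory receptor level.

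**Figure D4:**
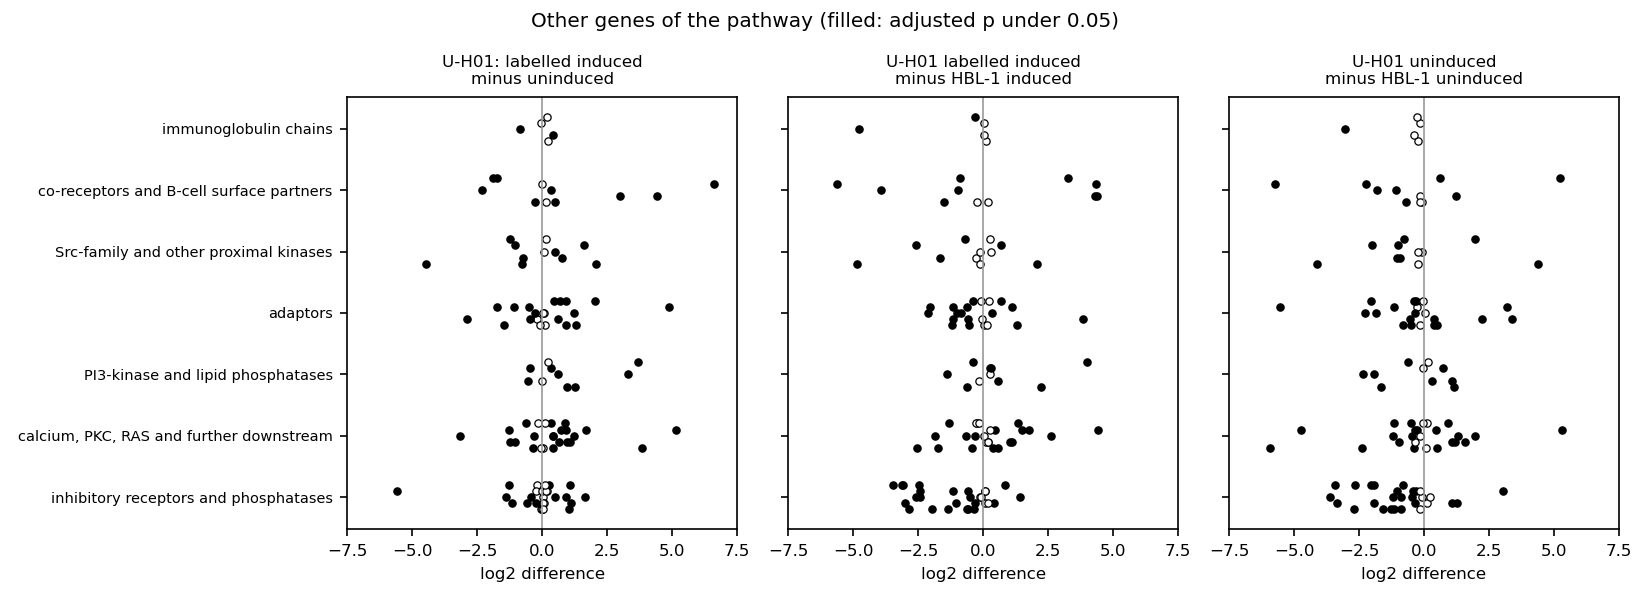
Log2 differences (x axis) of 111 other pathway genes in 7 fixed lists (y axis), with a point per gene, spread vertically only for legibility, and filled points for an adjusted p under 0.05. In the row of inhibitory receptors and phosphatases, 19 of 28 points are filled and left of 0 for U-H01 labelled induced against HBL-1, and 20 of 28 for the uninduced arrays.

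Promoter windows of 250 bases before the annotated start were taken from the RefSeq table of GRCh38.p14 for 7 of the 10 members, in 11 windows. LYN was left out of this search, and CD79B and MS4A1 had no window there. A pair that was higher in U-H01 labelled induced, CD79A and BLNK, and a pair at or near background in both U-H01 groups, BTK and BANK1, are shown as examples of these 2 kinds of level. BTK and BANK1 each had another window, not shown, which held neither motif marked here. Capitals mark matches, on either strand, to the E-box CAGGTG in the first pair and to the PU.1 motif GAGGAAGT in the second, and the motifs share no bases there.
CD79A, chr19:41877029-41877278, plus strand: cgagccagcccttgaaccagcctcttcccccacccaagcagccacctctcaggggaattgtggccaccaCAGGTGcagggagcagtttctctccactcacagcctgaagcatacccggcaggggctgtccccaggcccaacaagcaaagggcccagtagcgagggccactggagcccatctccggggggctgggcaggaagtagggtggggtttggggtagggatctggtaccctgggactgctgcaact
BLNK, chr10:96271570-96271819, minus strand: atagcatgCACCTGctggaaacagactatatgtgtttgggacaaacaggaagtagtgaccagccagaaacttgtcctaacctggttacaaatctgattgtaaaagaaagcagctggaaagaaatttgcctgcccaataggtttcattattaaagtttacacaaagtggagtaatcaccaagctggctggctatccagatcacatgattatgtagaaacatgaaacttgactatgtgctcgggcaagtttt
BTK, chrX:101390797-101391046, minus strand: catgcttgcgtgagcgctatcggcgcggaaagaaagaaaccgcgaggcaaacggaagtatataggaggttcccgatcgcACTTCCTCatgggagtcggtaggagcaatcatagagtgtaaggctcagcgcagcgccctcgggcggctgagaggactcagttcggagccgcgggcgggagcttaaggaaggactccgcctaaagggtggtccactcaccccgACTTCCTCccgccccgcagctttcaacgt
BANK1, chr4:101790480-101790729, plus strand: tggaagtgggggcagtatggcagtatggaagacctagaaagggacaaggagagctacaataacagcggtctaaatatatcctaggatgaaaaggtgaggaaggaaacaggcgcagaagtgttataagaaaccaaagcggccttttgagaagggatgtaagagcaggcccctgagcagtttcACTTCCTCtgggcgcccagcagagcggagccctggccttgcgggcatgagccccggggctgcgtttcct

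The E-box letters lay in 4 of the 11 windows, those of CD79A, BLNK, SYK and PLCG2, and in 17.5% of 35116 windows of that length. The PU.1 letters lay in 3 of 11, those of BTK, BANK1 and SYK, and in 2.17% of all windows. BTK held PU.1 letters at 2 places, 171 to 164 and 29 to 22 bases before the start. The octamer ATGCAAAT, the EBF consensus, the ETS letters CCGGAAGT and the NF-kB consensus were in 0 of the 11 windows, and in 1.63%, 1.06%, 3.42% and 5.21% of all windows. The pairs shown do not stand for all members. SYK and CD22 were both higher in U-H01 labelled induced, yet SYK held both motifs and CD22 held neither. A match is a description of letters and not of binding.

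The gene most like each member over the 12 arrays was found by Pearson correlation, as a description, since the arrays form 3 clusters and share their normalization. MS4A1 and BANK1 had the same nearest gene, IL17RB, a receptor chain gene, at 0.999 and 0.998. IL17RB averaged 4.04 in U-H01 labelled induced, 3.85 in uninduced U-H01, 10.01 in induced HBL-1 and 10.13 in uninduced HBL-1. The nearest gene to BTK was LAPTM5 (0.998), to CD79B NAPSB (0.998), to CD79A PDLIM1 (0.999), to SYK ZNF101 (0.997), to LYN SDHD (0.994), to CD22 GCN1 (0.995) and to the brighter PLCG2 probe set DBNL (0.970). For BLNK it was GRB2, another adaptor of the pathway, at 0.996, which averaged 9.34 in U-H01 labelled induced, 8.11 in uninduced U-H01, 10.34 in induced HBL-1 and 10.37 in uninduced HBL-1.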

How the data were processed

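The authors deposited log2 expression values for 12 arrays, and the submitters' processing notes name Partek and RMA, with versions not given in the sources used here. A shift common to most genes would not show after RMA. The value table holds 33297 probe sets, 19460 with 1 symbol in the platform annotation, 1754 with several and 12083 with none. In 769 genes the brightest of several probe sets was taken. Array medians lay between 5.79 and 5.88, 0 pairs of arrays were identical, and the number of arrays limits the precision.

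One linear model with 7 terms (population, time point within line, induction within line) and 5 residual degrees of freedom was fitted over all arrays with limma 3.58.1 under R 4.3.3, two-sided, and B1 and B2 had separate induction terms where compared. It was tested on data simulated with independent noise, which cannot show the effect of shared cultures or of the mismatched U-H01 arrays. Pairs come from the labels' protocols, by which induced and uninduced cells at one time point were split from one population. Within a pair, deviations from the group mean correlated at 0.14 and -0.03 in B1, 0.10 and 0.03 in B2 and 0.10 in HBL-1. Members, lists and tests were chosen with earlier results of these data known. All 10 members are named, with up to 3 genes per list, direction and comparison, those with the largest differences past the threshold, and the nearest gene of each member. Some cell markers, FCRL4 and IGKC are named besides. matplotlib 3.10.9 and Python 3.11.15 were used for plots.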

Additional observations from a re-analysis of the deposited data

Results flagged for a closer look

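The U-H01 label difference and the HBL-1 induction difference were not alike for 5 members by the test of the difference itself. It was 5.27 for CD79A, 4.28 for CD22, 2.43 for SYK, 2.23 for BLNK and 1.18 for LYN, with the same direction in 4 of 4 U-H01 pairs. BANK1 was singled out because it was higher in all 4 U-H01 pairs and lower in both HBL-1 pairs. The contrast was 0.36 ± 0.14, which missed the threshold in limma (adjusted p = 0.0618) and passed with each array set to its median (0.50, adjusted p = 0.0109). The U-H01 levels of BANK1 lay within background, with 46.0% to 58.9% of the olfactory receptor genes brighter. The part of the identity mismatch among U-H01 arrays in these values was not tested.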

How the results depend on the processing

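The counts of members called (7 between the U-H01 labels, 0 in HBL-1, 8 and 9 between the lines in induced and uninduced arrays, 5 for the difference of differences, 0 between populations) stayed within 1.5 times under every alternative tried, with 10 as the highest count between the uninduced lines and 7 as the highest for the difference of differences. With 1 array left out they ran from 7 to 7, 0 to 0, 8 to 8, 9 to 9, 5 to 6 and 0 to 0. Counts of members above background (7 in U-H01 labelled induced, 6 in uninduced U-H01, 10 in each HBL-1 group) were the same with 1 array left out. With the array median as background they were 7 and 4 in U-H01, and with the median of the olfactory receptors 9 and 9.

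The sign of PLCG2 turned with the probe set. The dimmer probe set, an alternative chosen after seeing the data, gave 4.55 between the U-H01 labels, -4.68 between the uninduced lines, 4.44 for the difference of differences and 0.19 between populations, and the mean of both gave 2.12, -2.24, 2.05 and 0.0563. Members that did not pass also turned sign: CD79B between the U-H01 labels to 0.0703 with quantile normalization and 0.0904 with each array set to its median, MS4A1 in HBL-1 to 0.0027 and BLNK between populations to 0.0118 with quantile normalization. Leaving out 1 array, the values of such members crossed 0 as follows. Between the U-H01 labels CD79B ran from -0.15 to 0.0884 and MS4A1 from -0.0024 to 0.0929. In HBL-1 CD79A ran from -0.0025 to 0.0858, BTK from -0.0594 to 0.0737, MS4A1 from -0.0984 to 0.0753 and PLCG2 from -0.0246 to 0.0896. For the difference of differences MS4A1 ran from -0.0455 to 0.13. Between populations CD79A ran from -0.55 to 0.0417, CD79B from -0.56 to 0.0689, BLNK from -0.21 to 0.0843, BTK from -0.19 to 0.69, LYN from -0.21 to 0.0498, CD22 from -0.47 to 0.28 and BANK1 from -0.11 to 0.0872.

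The replicate block changed the call of BTK alone, for the difference of differences (adjusted p = 0.0281), and left 7 members called between the U-H01 labels. For the difference of differences BTK also passed with each array set to its median (adjusted p = 0.0240), with genes above the median level (0.0381) and without the time point (0.0322), and the brighter PLCG2 probe set with genes above the median level (0.0327), the trend and robust options (0.00835) and without the time point (0.0493). Levels near background limit the folds of SYK, BTK, BANK1 and MS4A1. In uninduced U-H01 BLNK and CD79A cleared the background level by little, so their folds may be limited as well.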
